A study of Mus musculus with 74 samples.

Results

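The Slc25 genes encode the mitochondrial carrier family. They were taken as every gene of the RNA table whose symbol is Slc25a followed by a number, with pseudogenes dropped, which gave 47 of 55487 genes. Their RNA was measured in adipocytes of Adiponectin-Cre:NuTRAP mice, in which the adipocyte-specific Adiponectin promoter drives Cre and thereby the NuTRAP allele, a reporter that tags ribosomes with GFP and labels nuclei. All RNA and ATAC groups share these alleles. Adipocytes of brown fat (BAT, brown adipose tissue) and of inguinal white fat (WAT) were sampled at ZT1, ZT5, ZT9, ZT13, ZT17 and ZT21, where ZT (Zeitgeber time) counts hours from lights on. There were 3 RNA libraries for each depot and time, except BAT at ZT17 with 2, and 3 ATAC libraries for each depot and time. BMAL1 ChIP-seq, with 2 libraries, came from inguinal WAT of C57BL6J mice at ZT4, for which the labels name neither allele. The labels give no age, sex, diet or light schedule, so no feeding comparison was made, and the dark phase was set by convention to ZT13, ZT17 and ZT21. Nothing in them ties a replicate to an animal of its own, so each p-value measures only the spread between libraries, which may be technical.

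The inner mitochondrial membrane is impermeable to most metabolites, and Slc25 carriers are the proteins that exchange them with the cytosol. They pass ADP and ATP, phosphate, citrate, malate, 2-oxoglutarate, amino acids, acylcarnitines and cofactors, mostly as swaps of 1 molecule for another. In adipocytes citrate export feeds fatty acid synthesis, acylcarnitine import feeds fatty acid oxidation, and UCP1, a member of the family by sequence that has another kind of name, dissipates the proton gradient as heat in brown fat. BMAL1 is a transcription factor of the circadian clock that binds the E-box CACGTG together with CLOCK.

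Counts per RNA library ranged from 4980147 to 46274438 for BAT and from 1301522 to 6481154 for WAT. Slc25 members took 0.477% to 0.652% of the counts in BAT and 0.0674% to 0.217% in WAT. WAT libraries also ranged higher in mitochondrially encoded RNA, 0.686% to 27.6% of counts against 0.126% to 2.25% in BAT, and in reads at 3 ribosomal RNA loci, 5.26% to 66.0% against 0.813% to 4.64%. With these 2 classes removed, the Slc25 share was 0.496% to 0.658% in BAT and 0.164% to 0.294% in WAT, so the ranges still did not overlap. Ribosomal RNA loci took over 50% of the counts in 3 WAT libraries (ZT5 replicate 3, ZT9 replicate 3 and ZT17 replicate 2). The 5 adipocyte markers were detected in both depots, with a summed level of 26400 to 65200 CPM (TMM-scaled counts relative to library size) in BAT and 8280 to 73900 CPM in WAT. All 5 brown adipocyte markers were higher in BAT. Markers of several other cell types were higher in WAT, with 4 of 4 tested fibroblast genes, 2 of 3 macrophage, 3 of 3 endothelial and 3 of 4 erythroid genes called. The summed level of 5 fibroblast genes was 157 to 1070 CPM in WAT and 10.7 to 65.2 CPM in BAT, and that of 5 macrophage genes was 20 to 179 CPM against 6.71 to 11.7 CPM. The 5 endothelial genes summed to 3.08 to 87.8 CPM in WAT and 2.13 to 30 CPM in BAT, the 5 erythroid genes to 87.8 to 572 CPM against 57.4 to 383 CPM, and the 5 lymphocyte genes to 1.23 to 36 CPM against at most 0.208 CPM, each of the 5 being at 0 in over 50% of the BAT libraries, as was the endothelial gene Vwf. Of the 5 skeletal muscle genes 2 were higher in BAT, and their sum was 21.3 to 619 CPM in BAT and 5.86 to 406 CPM in WAT. The part of these cells in any Slc25 difference between depots or between WAT libraries was not tested. The RNA came from a pulldown of GFP-tagged ribosomes, which selects against RNA of cells that lack the tag, and marker RNA of such cells was measured in it all the same. The pulldown started from homogenized whole depots, so fewer cells of a type and less RNA per cell cannot be told apart.

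Levels of different carriers were compared per transcript length, as the TPM values that the authors deposited. A few carriers made up most of the family's RNA. In BAT 5 of the 39 listed members (among them Slc25a39, Slc25a4, Slc25a3 and Slc25a11) gave 77.6% of the members' summed median TPM, and in WAT 5 of 37 (among them Slc25a39, Slc25a3, Slc25a4 and Slc25a5) gave 65.6%. Slc25a39, which carries glutathione into mitochondria, ranked highest in both depots. Its lowest, median and highest TPM were 683, 827 and 972 over 17 BAT libraries and 70.3, 149 and 440 over 18 WAT libraries.

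Of the adenine nucleotide translocases, Slc25a4 was at a median of 318 TPM in BAT and 81.7 TPM in WAT, and Slc25a5 at 83.1 TPM and 70.1 TPM. Slc25a3, the phosphate carrier that supplies ATP synthase, was at 221 TPM and 123 TPM. In BAT the range of Slc25a39 lay above that of every other member, and the range of Slc25a3, from 193 to 326 TPM, lay above that of Slc25a11, the next in order, at 97.6 to 161 TPM. All other neighbours in the BAT order, and all neighbours in WAT, had overlapping ranges. The order of the members was much alike between the depots, with a Spearman rho of 0.85 across the 37 members listed in both tables. This is a description across genes. Slc25 TPM summed to a median of 2634 in BAT and 879 in WAT, but the deposited WAT columns sum to only 509500 to 963200, so TPM is used here for the order within a depot and not for the difference between depots.

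**Figure D1:**
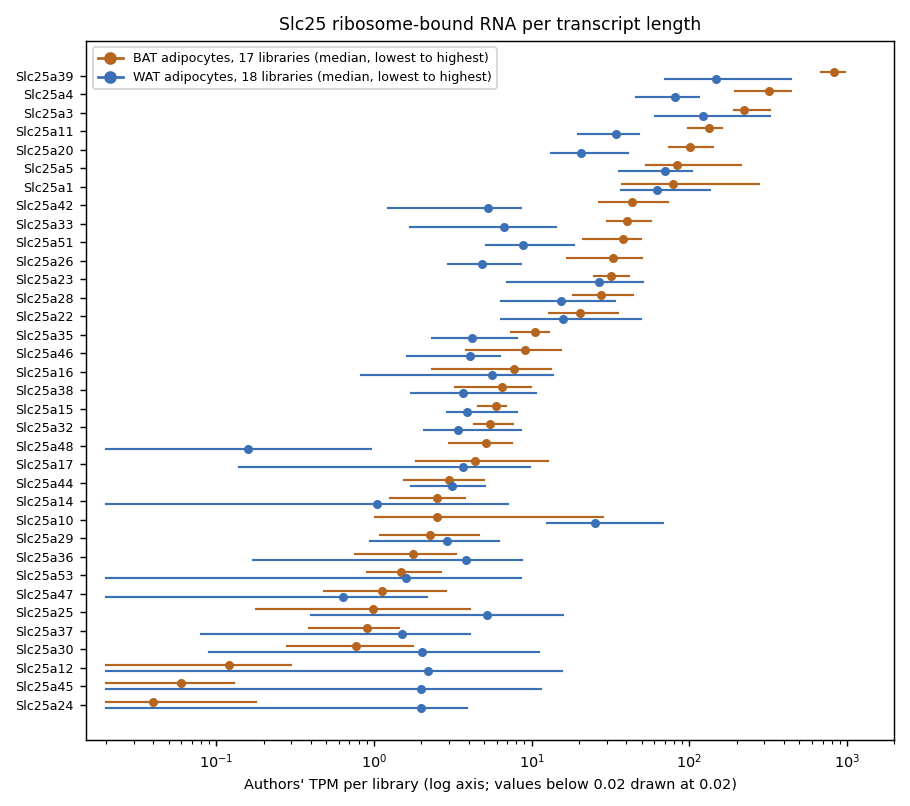
Authors' TPM of 35 Slc25 members with a median of at least 1 TPM in either depot, on a log axis. Points are medians and lines run from the lowest to the highest library, over 17 BAT and 18 WAT libraries, and Slc25a10 stands out with a median of 2.51 TPM in BAT and 25.4 TPM in WAT.

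The question of how the carriers differ between brown and white adipocytes was addressed on the counts, by a contrast of BAT with WAT averaged over the day. Most carriers that differed were higher in BAT. Of 34 members with enough counts to test, 15 were higher in BAT and 3 higher in WAT by at least 2-fold at an adjusted p under 0.05 (edgeR quasi-likelihood test, Benjamini-Hochberg over 10999 genes). Over all genes tested 23.1% were called higher in BAT and 24.2% higher in WAT, against 44.1% and 8.82% of the tested members. The median log2 difference was 0.89 over the 34 members and 0.04 over all genes. Members pass the count filter through either depot, so these shares describe the members that passed.

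**Figure D2:**
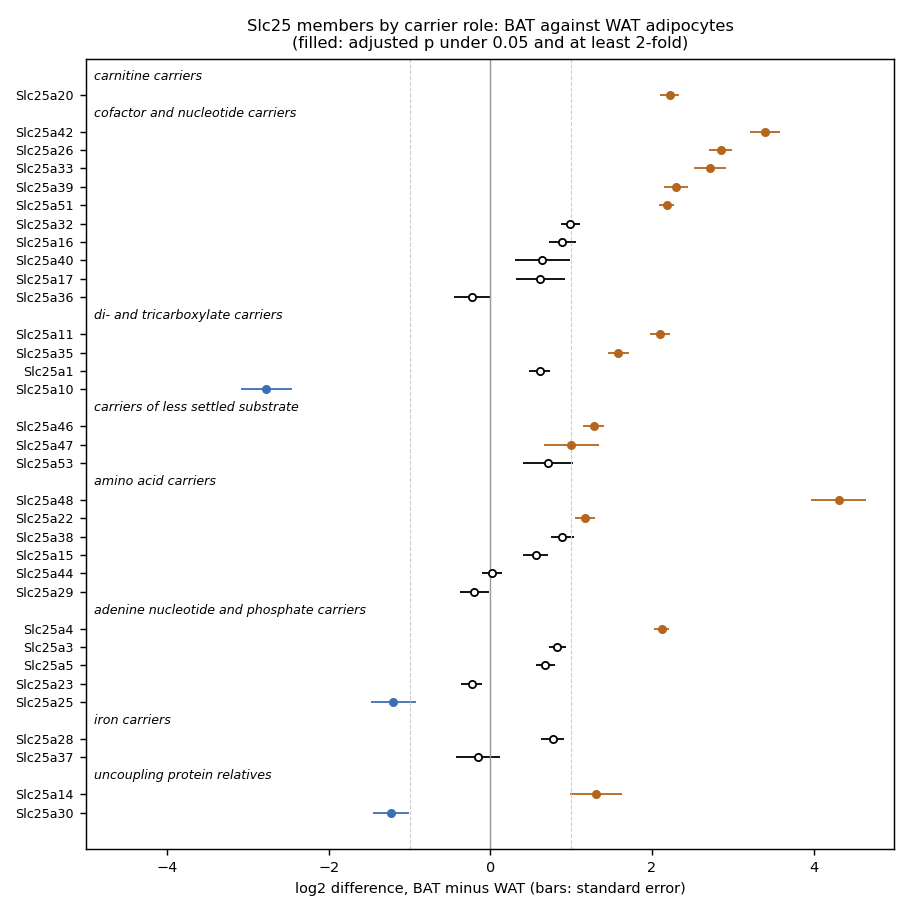
Log2 difference between BAT and WAT adipocytes for 33 tested Slc25 members, grouped by what they carry, with standard errors; dashed lines mark 2-fold. Filled points passed the test with at least 2-fold, 14 to the right (higher in BAT) and 3 to the left (Slc25a10, Slc25a30 and Slc25a25).

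Of the cofactor and nucleotide carriers 6 of 11 were higher in BAT and none was higher in WAT. Slc25a42, which imports coenzyme A, had a lowest, median and highest level of 78.9, 170 and 214.8 CPM in BAT and 3.73, 16.0 and 29.1 CPM in WAT, which is a log2 difference of 3.40 ± 0.19 (SE, adjusted p = 5.93e-18, edgeR). Slc25a26, which imports the methyl donor S-adenosylmethionine, had 48.8, 73.2 and 88.8 CPM in BAT and 4.92, 10.5 and 21.01 CPM in WAT, which is a log2 difference of 2.85 ± 0.14. Its gene shares bases with Lrig1, so its counts are less certain if reads were not assigned by strand. For both carriers every BAT library lay above every WAT library.

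Slc25a33 (chr4:149744036-149774267 on GRCm38.p6, as for the other gene spans given), a carrier of pyrimidine nucleotides, had 51.2, 106 and 128 CPM in BAT and 3.05, 16.5 and 34.2 CPM in WAT, which is a log2 difference of 2.72 ± 0.20. Slc25a51, the carrier of NAD, had 147, 189 and 252 CPM against 30.4, 42.4 and 51.4 CPM, a log2 difference of 2.18 ± 0.09. Slc25a39 had 630, 804 and 980 CPM against 82.1, 161 and 363 CPM, a log2 difference of 2.30 ± 0.15. The groups did not overlap for these 3 carriers. The other 5 cofactor and nucleotide carriers did not reach 2-fold with an adjusted p under 0.05. Slc25a32, which carries folate, came nearest, at 0.99 ± 0.12 (adjusted p = 5.14e-09), just under the fold required.

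Among carriers of energy metabolism, Slc25a4 rose in BAT by a log2 of 2.12 ± 0.09 (adjusted p = 2.08e-21), with 578, 680 and 792 CPM against 117, 160 and 221 CPM. Its close copy Slc25a5 had 93.4, 124 and 232 CPM in BAT and 55.4, 87.4 and 114 CPM in WAT. That difference of 0.68 ± 0.12 stayed under 2-fold, as did the 0.83 ± 0.11 of Slc25a3. Whether the 2 translocases differ in this was not tested, and reads of Slc25a5 can be shared with the pseudogene Slc25a5-ps. Slc25a20, the carnitine and acylcarnitine carrier of fatty acid oxidation, had 170, 208 and 236 CPM in BAT and 27.6, 47.0 and 84.8 CPM in WAT, which is a log2 difference of 2.22 ± 0.12.

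The di- and tricarboxylate carriers went in both directions. Slc25a11, the 2-oxoglutarate carrier of the malate-aspartate shuttle, had 202, 247 and 331 CPM in BAT and 38.0, 54.3 and 102 CPM in WAT, which is a log2 difference of 2.10 ± 0.12; its gene shares bases with Rnf167. Slc25a35, whose gene shares bases with Rangrf, was higher in BAT by 1.58 ± 0.13. Slc25a10 (chr11:120491837-120501161), the dicarboxylate carrier that exchanges malate and succinate for phosphate, was higher in WAT instead, with 2.71, 5.31 and 50.9 CPM in BAT and 33.5, 51.6 and 177 CPM in WAT. Its log2 difference was -2.77 ± 0.31 (adjusted p = 3.88e-10, edgeR), the largest towards WAT among the 34 tested members. The highest BAT library, at ZT21, lay inside the WAT range. Slc25a1 (chr16:17925211-17928219), the citrate carrier, was at 102 to 406 CPM in BAT and 55.3 to 242 CPM in WAT, a difference of 0.61 ± 0.13 that stayed under 2-fold.

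Slc25a48 (chr13:56437960-56472367), reported as a choline importer and set among the amino acid carriers here, had the largest difference of all tested members. Its levels were 10.5, 19.8 and 38.3 CPM in BAT and 0, 0.879 and 4.28 CPM in WAT, with every BAT library above every WAT library, and the fitted log2 difference was 4.31 ± 0.34 (adjusted p = 5.27e-14, edgeR). Slc25a22, a glutamate carrier, was higher in BAT by 1.17 ± 0.12. The branched-chain amino acid carrier Slc25a44 was at 9.03 to 16.1 CPM in BAT and 6.35 to 16.0 CPM in WAT, with a difference of 0.02 ± 0.12 (adjusted p = 0.892). Slc25a46, an outer membrane protein tied to mitochondrial shape, was higher in BAT by 1.28 ± 0.13 with no overlap. Slc25a14, an uncoupling protein relative, was higher by 1.31 ± 0.32 and Slc25a47 by 1.00 ± 0.34 with overlapping ranges. Slc25a47 was at 1.11 to 4.17 CPM in BAT and lay so close to 2-fold that leaving out any of 18 of the 35 libraries ended the call. It was also lost with RLE scaling, with DESeq2, without the 3 WAT libraries rich in ribosomal RNA and with glmTreat (adjusted p up to 0.0678).

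The other 2 members higher in WAT had low levels. Slc25a30, also an uncoupling protein relative, had 1.61, 3.28 and 6.26 CPM in BAT and 0.571, 6.61 and 16.1 CPM in WAT, which is a log2 difference of -1.23 ± 0.22. Slc25a25, a calcium-regulated ATP-magnesium and phosphate carrier whose gene shares bases with Naif1, had 1.04, 4.34 and 13.2 CPM in BAT and 1.80, 10.3 and 23.6 CPM in WAT, which is a log2 difference of -1.20 ± 0.28. Their ranges overlapped between the depots. The iron importers showed no 2-fold difference. Slc25a28 differed by 0.77 ± 0.14 towards BAT, and Slc25a37 by -0.15 ± 0.27 (adjusted p = 0.618). The remaining tested members not named above (Slc25a15, Slc25a16, Slc25a17, Slc25a23, Slc25a29, Slc25a36, Slc25a38, Slc25a40 and Slc25a53) lay between -0.23 and 0.89.

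The count filter left out 13 members. Slc25a54 had no counts in any library, and Slc25a2, Slc25a18, Slc25a21, Slc25a41 and Slc25a43 stayed at or below 0.289 CPM in every library. The others were low in BAT and higher in some WAT libraries, or the reverse. Slc25a12, an aspartate and glutamate carrier of the malate-aspartate shuttle, was at most 0.696 CPM in BAT and at a median of 3.66 CPM in WAT with a highest value of 21.2 CPM. Its copy Slc25a13 had no counts in BAT and at most 2.71 CPM in WAT. The medians of Slc25a24 were 0.173 CPM for BAT and 5.37 CPM for WAT, and those of Slc25a45 0.125 CPM and 2.75 CPM. Slc25a27 reached at most 0.354 CPM in BAT and 3.17 CPM in WAT. Slc25a34 reached 2.20 CPM and 2.85 CPM. With no filter, Slc25a12, Slc25a13, Slc25a24, Slc25a27 and Slc25a45 were called higher in WAT and Slc25a31, the germ cell translocase, higher in BAT at no more than 1.75 CPM. In that fit 20 of 46 tested members were called higher in BAT and 6 in WAT, and Slc25a25 and Slc25a30 were no longer called. Over all genes it called 11706 of 29587, and 34.6% of the called genes were higher in BAT. Its median log2 difference over all genes was -0.48, against 0.04 with the filter, so its counts are not on the same footing. The call of Slc25a25 was also lost with limma voom. Fibroblast, macrophage and endothelial markers moved in the same direction as these 5 genes, and their part was not tested.

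Other genes of the same pathways were taken from lists drawn up for this comparison, with earlier results of these data known. Their counts describe the listed genes and are no test of a pathway. Over all genes 23.1% were called higher in BAT and 24.2% higher in WAT. The 5 carrier family genes with other names split, with Ucp1 higher in BAT by a log2 of 4.67 ± 0.31, Mtch2 by 1.91 ± 0.16 and Mtch1 by 1.44 ± 0.08, and Ucp2 higher in WAT at -4.60 ± 0.32. Of the 10 genes of the TIM22 route, which inserts carriers into the inner membrane, 8 were called higher in BAT and none higher in WAT, led by Timm10 (2.66 ± 0.20), Timm9 (2.52 ± 0.17) and Timm13 (2.51 ± 0.19). All 4 outer membrane channel genes were higher in BAT, among them Tspo (2.13 ± 0.11), Vdac1 (2.03 ± 0.09) and Vdac3 (2.03 ± 0.13).

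All 4 enzymes of the malate-aspartate shuttle rose in BAT, led by Mdh2 (2.92 ± 0.12), Mdh1 (2.67 ± 0.18) and Got1 (1.41 ± 0.25). Of 15 enzymes around citrate, malate and pyruvate 8 were higher in BAT, with Me3 (3.59 ± 0.30) and Mdh2 among them. Me2 alone was higher in WAT (-1.40 ± 0.20). That list also holds the fatty acid synthesis enzymes Acaca, Acacb and Fasn. Of 5 carnitine shuttle enzymes Cpt1b (4.34 ± 0.25) and Cpt2 (1.89 ± 0.18) were higher in BAT and Cpt1a higher in WAT (-1.67 ± 0.25). Of 15 tested genes of branched-chain amino acid breakdown 8 were higher in BAT and none in WAT, led by Dld (2.44 ± 0.12), Pccb (2.08 ± 0.16) and Auh (1.95 ± 0.14). Of 15 inner membrane transporters outside the family 7 were higher in BAT, led by Mpc1 (2.60 ± 0.15), Mpc2 (2.52 ± 0.13) and Smdt1 (2.37 ± 0.11), and 2 in WAT, Sfxn3 (-4.58 ± 0.24) and Sfxn2 (-1.02 ± 0.26). The lists share Mdh1 and Mdh2, and the median difference was above that of all genes in each of them.

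Rhythms over the day were fitted in each depot as a cosine of period 24 h, tested over 12394 genes in BAT and 12703 in WAT. The fit gives the time of the peak and the log2 difference from trough to peak. In BAT 7 of 35 tested members were called rhythmic (20%, against 9.17% of all genes), and 12 members were left out by the count filter. The BAT libraries at ZT21 stood apart from each other. Leaving out ZT21 replicate 2 raised the called members to 14 of 35 while the share of all genes called went from 9.17% to 27.4%, so the number of rhythmic carriers depends on that library. All 7 members stayed called without it.

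**Figure D3:**
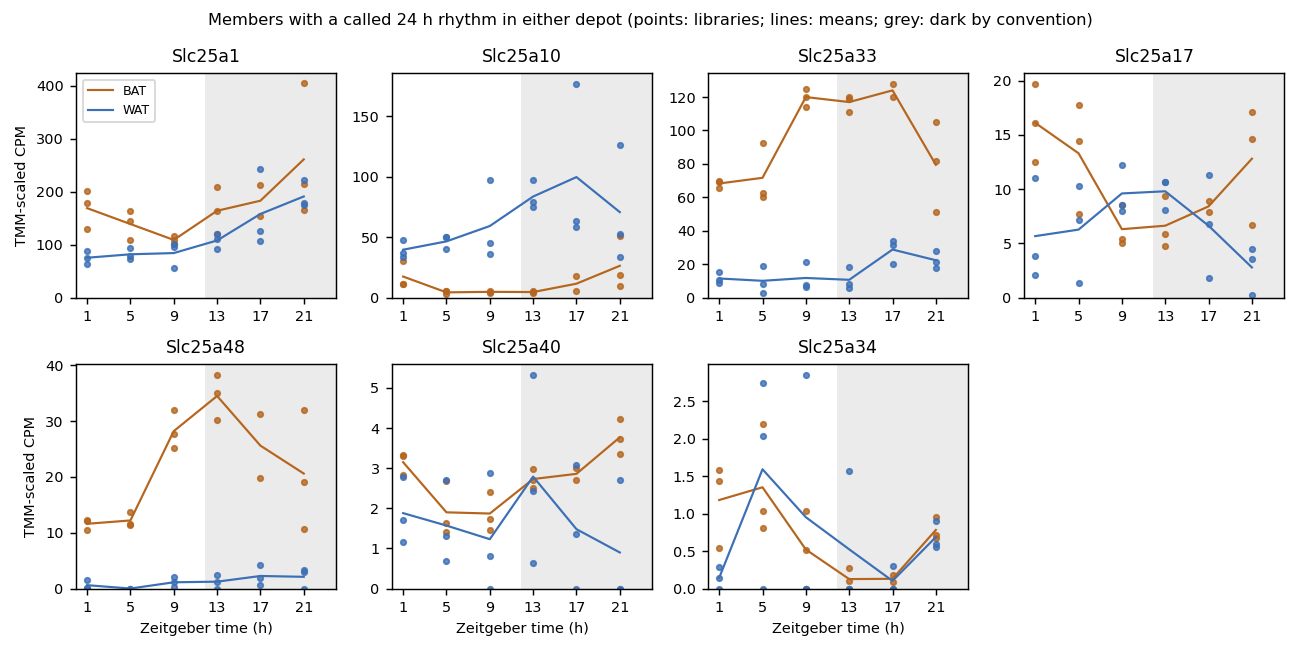
TMM-scaled CPM of 7 Slc25 members called rhythmic in either depot, by Zeitgeber time, with 1 point for each library and lines through the means (BAT 17 libraries, WAT 18; the vertical scale differs between genes). Slc25a48 climbs in BAT from 11.6 CPM at ZT1 to 34.5 CPM at ZT13.

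Slc25a10 had the widest swing among well-counted carriers in BAT, a peak-to-trough log2 difference of 2.85 ± 0.47 (7.23-fold, SE on the log2 scale) with its peak at ZT21.5 (adjusted p = 0.00423, edgeR). Its 3 libraries read 5.27, 5.22 and 2.7 CPM at ZT5 and 5.22, 4.82 and 3.98 CPM at ZT13. They rose to 19, 9.35 and 50.9 CPM at ZT21 and were at 11.2, 11.0 and 30.2 CPM at ZT1. The ZT21 and ZT1 libraries all lay above those of ZT5, ZT9 and ZT13, but the 3 libraries at ZT21 spread widely among themselves.

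Slc25a48 and Slc25a33 peaked near the start of the dark phase in BAT. Slc25a48 read 12.1, 12.3 and 10.5 CPM at ZT1, 11.3, 11.6 and 13.8 CPM at ZT5, 25.1, 27.7 and 31.9 CPM at ZT9 and 30.2, 35.0 and 38.3 CPM at ZT13. Every library at ZT9 and ZT13 was above every one at ZT1 and ZT5, and the fit gave 1.60 ± 0.25 with a peak at ZT13.9 (adjusted p = 0.00261). Slc25a33 read 65.6, 69.3 and 69.9 CPM at ZT1, 114, 120 and 125 CPM at ZT9, and 120 and 128 CPM at ZT17. Its fit gave 0.95 ± 0.17 with a peak at ZT13.3 (adjusted p = 0.00883, edgeR), and the ZT9, ZT13 and ZT17 libraries all lay above those of ZT1 and ZT5. Marker sums in BAT varied with time too. The 5 brown adipocyte genes summed to 6200 to 7470 CPM at ZT1 and to 11500 to 13100 CPM at ZT13. The 5 adipocyte genes summed to 26400 to 33000 CPM at ZT1 and to 45500 to 65200 CPM at ZT9. In each of these 2 lists 2 of 5 genes were called rhythmic in BAT, and no tested gene of the other marker lists was. Their part in the rise of these carriers was not tested.

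Slc25a17, a peroxisomal carrier of coenzyme A and related cofactors, peaked around lights on. It read 12.5, 19.7 and 16.1 CPM at ZT1 and 8.54, 5.03 and 5.37 CPM at ZT9, which did not overlap, and the fit gave 1.43 ± 0.29 at ZT0.657 (adjusted p = 0.0174, or 0.0505 without ZT1 replicate 2). Slc25a1 rose late in the dark phase, from 109, 117 and 102 CPM at ZT9 to 214, 165 and 406 CPM at ZT21, with a fit of 1.04 ± 0.24 at ZT20.2 (adjusted p = 0.0334). That call was lost when any of 9 libraries was left out (ZT1 replicates 2 and 3, ZT9 replicates 1, 2 and 3, ZT13 replicate 3, ZT17 replicate 2, and ZT21 replicates 1 and 3), with an adjusted p of up to 0.0876. It was also lost with the replicate block and with time as a factor (adjusted p up to 0.107). BAT ZT21 replicate 3, the highest library for Slc25a1 and Slc25a10, also had the highest BAT sums of endothelial (30 CPM), fibroblast (65.2 CPM) and erythroid (383 CPM) markers, and the Slc25a10 call was kept without it. The part of these markers in the high values was not tested.

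The remaining 2 calls in BAT were on low counts. Slc25a40, a glutathione carrier like Slc25a39, went from 1.46, 2.41 and 1.73 CPM at ZT9 to 4.22, 3.74 and 3.35 CPM at ZT21, a fit of 1.01 ± 0.22 at ZT20.1 (adjusted p = 0.025, or 0.0645 without ZT21 replicate 1). Slc25a34 never exceeded 2.20 CPM, and its fit of 3.30 ± 0.66 at ZT2.63 (adjusted p = 0.0145) rests on values of 0 to 0.278 CPM at ZT13 and ZT17. The carriers at the highest levels in BAT moved little. Slc25a39 had a fitted swing of 0.29 ± 0.13 (adjusted p = 0.249), with means from 733 CPM at ZT1 to 927 CPM at ZT13, and Slc25a4 had means between 608 CPM at ZT9 and 753 CPM at ZT17. With time as a factor the calls of Slc25a17, Slc25a34 and Slc25a40 were lost (adjusted p up to 0.0886).

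In WAT 3 of 35 members were called rhythmic (8.57%, against 9.90% of all genes), all with peaks in the dark phase. Marker sums in WAT varied with time as well. The 5 brown adipocyte genes summed to 87.6 to 212 CPM at ZT1 and to 226 to 1210 CPM at the other times, which did not overlap. The ranges of the lists given next overlapped. The 5 adipocyte genes summed to 34600 to 73900 CPM at ZT17 and ZT21, to 8280 to 39700 CPM from ZT5 to ZT13 and to 24800 to 55500 CPM at ZT1. The 5 fibroblast genes summed to 157 to 525 CPM at ZT17 and ZT21 and to 296 to 1070 CPM at the other times, the 5 lymphocyte genes to 1.23 to 9.89 CPM against 2.20 to 36 CPM, and the 5 endothelial genes to 3.08 to 73 CPM against 10.8 to 87.8 CPM. Of these markers 1 lymphocyte gene passed the rhythm test. Their part in the dark-phase peaks of the carriers and of the enzymes described further on was not tested.

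Slc25a1 in WAT went from 63.4, 87.4 and 75.5 CPM at ZT1 to 178, 222 and 175 CPM at ZT21, a fit of 1.38 ± 0.28 with a peak at ZT18.5 (adjusted p = 0.0106). Its 3 libraries at ZT21 lay above all 12 libraries of ZT1, ZT5, ZT9 and ZT13. Slc25a10 went from 33.9, 37.2 and 48.0 CPM at ZT1 to 79.1, 75.0 and 97.0 CPM at ZT13, and the values of 63.6, 177 and 58.6 CPM at ZT17 and 33.5, 126 and 53.0 CPM at ZT21 were more scattered. Its fit of 1.32 ± 0.36 at ZT15.8 (adjusted p = 0.0475) was lost on leaving out any of 14 of the 18 libraries, the exceptions being ZT9 replicate 3, ZT13 replicates 1 and 2 and ZT21 replicate 2. It was also lost with RLE scaling, without mitochondrial genes and ribosomal RNA loci, without the 3 libraries rich in ribosomal RNA and with time as a factor (adjusted p up to 0.165).

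Slc25a33 missed the threshold in WAT, with a fit of 1.64 ± 0.45 at ZT18.6 (adjusted p = 0.05). It read 8.08, 5.69 and 18.2 CPM at ZT13 and 34.2, 20.3 and 31.8 CPM at ZT17. WAT ZT9 replicate 3, 1 of the 3 libraries with over 50% ribosomal RNA, changed these counts. Without it 7 of 37 members were called, while 18.4% of all genes were, and the added members were Slc25a33 (2.04 ± 0.44, adjusted p = 0.00552), Slc25a39 (1.37 ± 0.31, adjusted p = 0.00843), Slc25a15 (1.34 ± 0.39, adjusted p = 0.0459) and Slc25a12 (2.45 ± 0.72, adjusted p = 0.0458). Without WAT ZT13 replicate 2 the count was 5, and the share of all genes in that fit is not shown here.

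**Figure D4:**
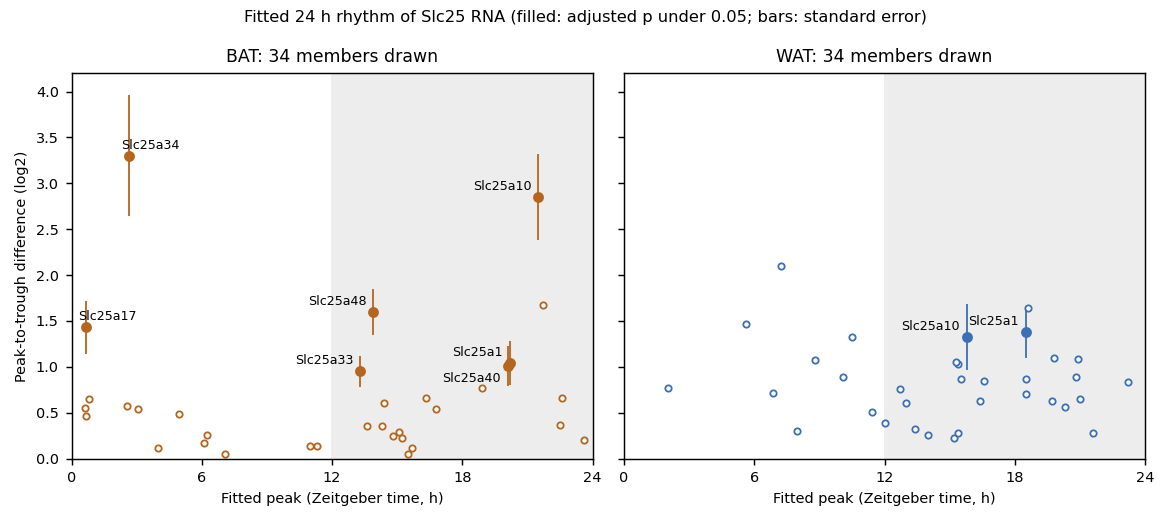
Fitted peak time and peak-to-trough log2 difference of 34 tested Slc25 members in each depot. Filled points with standard errors passed the test, 7 in BAT (peaks from ZT0.657 to ZT21.5) and 2 in WAT (peaks at ZT15.8 and ZT18.5).

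The difference in rhythm between the depots was tested itself, as the amplitude of the fitted curve of BAT minus WAT. It was called for 4 of 34 members (11.8%, against 12.9% of 10999 genes). Slc25a10 had an amplitude of 1.52 ± 0.30 (adjusted p = 0.00883, edgeR), with its peak at ZT21.5 in BAT and at ZT15.8 in WAT. Slc25a17 had 1.34 ± 0.33 (adjusted p = 0.0216). Its mean went from 16.1 CPM at ZT1 to 6.31 CPM at ZT9 in BAT and from 5.67 CPM to 9.60 CPM in WAT. The WAT libraries overlapped, at 3.87, 2.13 and 11 CPM at ZT1 and 8, 12.2 and 8.56 CPM at ZT9. The rhythm of Slc25a17 in WAT was not called (1.33 ± 0.64, adjusted p = 0.328, edgeR), so an opposite rhythm there is not shown. Slc25a33 had 0.84 ± 0.24 (adjusted p = 0.0441), a call that was lost without any of 20 of the 35 libraries and with RLE scaling. For Slc25a1, rhythmic in both depots, the amplitude of the difference was 0.28 ± 0.19 (adjusted p = 0.521). Without the 3 WAT libraries rich in ribosomal RNA the count of differing members rose to 10 of 34, and Slc25a10, Slc25a17 and Slc25a33 were among them. The count over all genes rose as well, to 3641 of 10949 from 1418 of 10999.

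Dark against light was taken as the mean of ZT13, ZT17 and ZT21 minus that of ZT1, ZT5 and ZT9. It gave 1 of 35 members in BAT (2.86%, against 1.3% of all genes) and 3 of 35 in WAT (8.57%, against 7.5%). All were higher in the dark. Of all genes in BAT 0.855% were called higher in the dark and 0.444% higher in the light. The BAT member was Slc25a48, at 0.71 ± 0.17 (adjusted p = 0.0493), a call that was lost on leaving out any of 15 of the 17 libraries, the exceptions being ZT21 replicates 2 and 3, and with RLE scaling and the replicate block. Of all genes in WAT 4.34% were called higher in the dark and 3.16% higher in the light. Slc25a1 was higher in the dark by 0.93 ± 0.19 (adjusted p = 0.00805). Slc25a10 was higher by 0.85 ± 0.26 (adjusted p = 0.0439), which was lost without any of 14 of the 18 WAT libraries, with RLE scaling, without mitochondrial genes and ribosomal RNA loci and without the 3 libraries rich in ribosomal RNA. Its exceptions were ZT9 replicates 2 and 3, ZT13 replicate 2 and ZT21 replicate 1. Without WAT ZT9 replicate 3 the count of members rose to 5, and the share of all genes in that fit is not shown here. In the same contrast 4 of 5 fibroblast genes were lower in the dark (list median -0.90), as were 1 of 4 lymphocyte genes (-1.70) and 1 of 5 skeletal muscle genes (-1.09), and 1 of 5 adipocyte genes was higher (0.62), against a median of -0.10 over all genes. Of the 5 brown adipocyte genes none was called, with a list median of 0.98. The part of these markers in the rise of the carriers was not tested.

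Among the pathway lists, rhythm in WAT was most frequent in that of the enzymes around citrate, malate and pyruvate. Slc25a1 carries citrate and Slc25a10 malate. The list also holds the fatty acid synthesis enzymes Acaca, Acacb and Fasn, so it is not limited to enzymes of these metabolites. Of its 15 enzymes 7 were called, against 9.90% of all genes in WAT. All 7 had dark-phase peaks, led by Me1 (2.95 ± 0.42 at ZT20.5), Fasn (2.39 ± 0.43 at ZT19.4) and Acacb (1.84 ± 0.37 at ZT16.6). In BAT 3 were called, against 9.17% of all genes. They were Acly (1.87 ± 0.46 at ZT19.7), Acacb (0.78 ± 0.10 at ZT11.2) and Mdh1 (0.69 ± 0.16 at ZT11.8). The rhythm differed between depots in 6 of the 15, against 12.9% of all genes. Me1 (amplitude 1.10 ± 0.26), Acacb (0.88 ± 0.20) and Cs (0.83 ± 0.23) led. In WAT 5 of the 15 were called higher in the dark, against 4.34% of all genes. Among them were Acacb (1.20 ± 0.23), Me1 and Fasn (1.11 each, SE 0.25 and 0.29). The marker genes that varied between WAT times were the same ones given beside the carriers, and their part in the enzymes' differences was not tested.

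The counts of the other lists stand against the same 9.90% of all genes in WAT and 9.17% in BAT. Of the branched-chain amino acid genes 4 of 16 were rhythmic in WAT, with Bcat2 (1.83 ± 0.44 at ZT18.5), Mut (1.78 ± 0.33 at ZT18.6) and Dbt (1.31 ± 0.34 at ZT18.5) leading, and 1 of 15 in BAT, Pccb (0.58 ± 0.13 at ZT11.7). Of the TIM22 route 3 of 10 were rhythmic in WAT, Timm9 (1.78 ± 0.42 at ZT19), Timm10b (1.47 ± 0.38 at ZT18.7) and Timm13 (1.34 ± 0.36 at ZT20.1), and none in BAT. Of the carnitine shuttle enzymes Cpt2 was rhythmic in WAT (1.74 ± 0.36 at ZT18.9) and Cpt1b in BAT (0.86 ± 0.22 at ZT11.9). Of the carrier genes with other names Mtch2 was called in WAT (1.47 ± 0.31 at ZT19.9) and Ucp2 in BAT (1.85 ± 0.38 at ZT0.159). Mdh1 was the shuttle enzyme called in BAT, and Sfxn1 (1.76 ± 0.36 at ZT19.2) the other inner membrane transporter called in WAT. No outer membrane channel gene was called in either depot.

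Chromatin accessibility was measured by ATAC-seq on sorted nuclei, as tags in peaks of 150 bp that were named for a gene in the deposited tables. In BAT 122 of 42572 peaks were named for 41 members, and in WAT 75 of 25050 for 37. A peak within 1 kb of the start site was present for 32 of the 35 members tested in BAT RNA (91.4%, against 71.1% of all genes tested) and for 29 of 35 in WAT (82.9%, against 64.4%). In BAT 17 of the 122 member peaks were rhythmic (13.9%, against 18.9% of all peaks) and in WAT 12 of 75 (16.0%, against 15.8%). The tables were made separately for each depot, so the depots were not tested against each other.

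Slc25a10 had 4 peaks in WAT and all 4 were rhythmic with crests between ZT17.7 and ZT19.9. The peak at 453 bp before the start read 66.6, 52.5 and 80.9 CPM at ZT5, 82.8, 90.6 and 98.1 CPM at ZT17 and 128, 111 and 88.4 CPM at ZT21, with a fit of 0.68 ± 0.11 at ZT19.9 (adjusted p = 0.000739, edgeR). The peak at 28 bp before the start read 74.4, 70.6 and 93.8 CPM at ZT5 and 119, 106 and 104 CPM at ZT21, a fit of 0.40 ± 0.08 at ZT19.2 (adjusted p = 0.00607). In both peaks every ZT21 library was above every ZT5 library. The intron peak 5786 bp into the gene gave 0.36 ± 0.08 at ZT17.7 and the 3' UTR peak at 6561 bp gave 0.78 ± 0.17 at ZT18.3. In BAT the gene had 2 peaks, and neither passed the test: the peak at 453 bp before the start had a fit of 0.58 at ZT21.4 with an adjusted p of 0.0534, and the peak at 11 bp a fit of 0.18 with an adjusted p of 0.307.

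**Figure D5:**
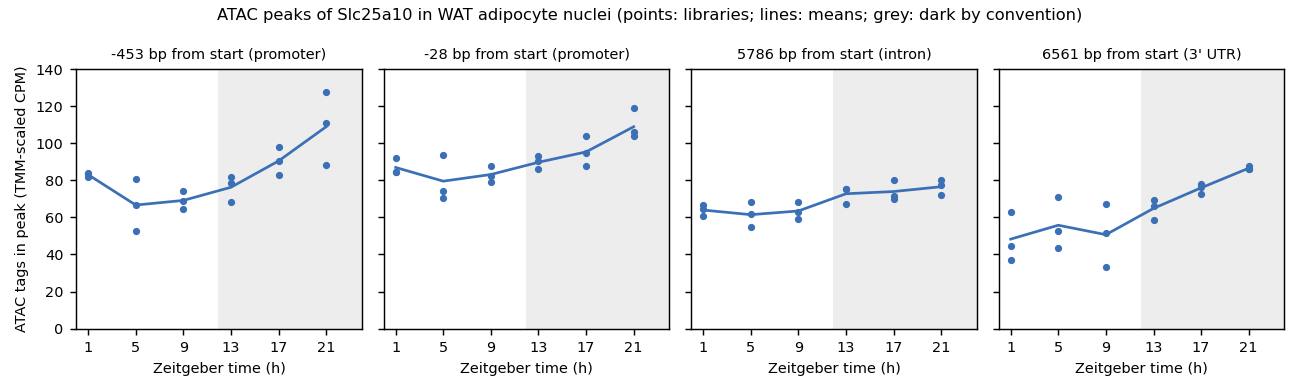
ATAC tags, as TMM-scaled CPM, in the 4 peaks of Slc25a10 in WAT by Zeitgeber time, with 1 point for each library (3 at each time) and lines through the means. At 453 bp before the start the mean goes from 66.7 CPM at ZT5 to 109 CPM at ZT21, and at 6561 bp from 48.3 CPM at ZT1 to 86.6 CPM at ZT21.

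The largest swing of a member peak in WAT was in an intergenic peak 18057 bp before Slc25a33. It read 36.4, 34.7 and 33.0 CPM at ZT9 and 10.7, 14.8 and 15.5 CPM at ZT21, with no overlap, a fit of 1.13 ± 0.16 at ZT10.2 (adjusted p = 0.00016). Slc25a21, an oxodicarboxylate carrier whose RNA was near 0 in both depots, had an intron peak with a fit of 0.96 ± 0.20 at ZT19.8 in WAT and 0.40 ± 0.12 at ZT18.5 in BAT, the latter lost without any of 15 of the 18 libraries. Slc25a45 had a 5' UTR peak with 0.89 ± 0.20 at ZT17.6 and a mean that went from 15.5 CPM at ZT1 to 34.0 CPM at ZT17. The promoter peaks of Slc25a1 and Slc25a33 were not rhythmic in WAT, with fits of 0.19 and 0.18 and adjusted p-values of 0.211 and 0.199. Further rhythmic peaks in WAT, each lost when some single libraries were left out, were those of Slc25a51 (0.64 ± 0.18, intron), Slc25a17 (0.59 ± 0.14, intron, adjusted p = 0.0958 without ZT21 replicate 2) and Slc25a28 (0.51 ± 0.14 in an intron and 0.28 ± 0.07 at the promoter).

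In BAT the largest swing was in an intron peak named for Slc25a51 and lying 31495 bp before its start, at 3.30, 4.19 and 5.24 CPM at ZT1 and 10.5, 8.86 and 12.6 CPM at ZT13, a fit of 1.07 ± 0.24 at ZT12.2 (adjusted p = 0.0125). A further 5 peaks named for Slc25a51 were rhythmic in BAT, with peak times from ZT10.9 to ZT18.7, and 4 of these 5 calls were lost when single libraries were left out. The peaks 5925 bp before Slc25a4 (0.88 ± 0.16 at ZT9.57) and 124973 bp before Slc25a36 (0.88 ± 0.20 at ZT18.3) came next. Slc25a33 had a peak 24565 bp before its start (0.79 ± 0.17 at ZT7.19), and Slc25a20 an intron peak (0.76 ± 0.16 at ZT13.8). Slc25a26 had an intergenic peak at 0.61 ± 0.16 and a promoter peak at 0.45 ± 0.11, both lost when single libraries were left out, and Slc25a28 an intron peak at 0.60 ± 0.11 and a promoter peak at 0.27 ± 0.05. At Slc25a48 the 5' UTR peak 109 bp from the start read 27.8, 22.7 and 30.2 CPM at ZT5 and 36.2, 33.5 and 39.1 CPM at ZT13, with a fit of 0.51 ± 0.12 at ZT16.4 (adjusted p = 0.0185, or 0.0656 without ZT17 replicate 2). The promoter peaks of Slc25a10, Slc25a1, Slc25a17 and Slc25a33 in BAT had fits of 0.18, 0.12, 0.13 and 0.14, none of them past the threshold.

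BMAL1 peaks in inguinal WAT at ZT4 were taken from the authors' table of 10368 peaks, pooled over the 2 ChIP libraries, with HOMER's score for each. They bear on which carriers the clock factor was found at. Of the 47 members, 21 had a peak within 10 kb of the start, and of the 35 tested in WAT RNA 20 did (57.1%, against 44.7% of genes tested). Within 1 kb the shares were 57.1% and 41.3%, and for peaks at or above the median score within 10 kb they were 31.4% and 28.2%. The peak of highest score lay 1101 bp before the start of Slc25a39, at chr11:102408512-102408724 (mm10), with a score of 19.9, which ranked 206 of 10368, and 20.2 and 19.1 scaled tags in the 2 libraries. The table calls it intergenic, although RefSeq's span of the gene ends at 102408675, inside the peak. Next came the promoter peaks of Slc25a33 (score 13.2, rank 646), Slc25a51 (10.8, rank 1134) and Slc25a1 (10.3, rank 1282), a second peak of Slc25a39 110 bp before its start (10.1) and that of Slc25a15 (9.59). The median score was 5.99 over the 28 member peaks and 6.16 over all peaks.

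Promoter sequences of 36 members, 250 bases before each RefSeq start on GRCm38.p6 (mm10), were searched for the E-box CACGTG, which reads the same on both strands, and for the related CACGTT on either strand (AACGTG on the other). CACGTG was found in 7 of 36 members (19.4%) and in 6.86% of 27025 genes, and CACGTT in 3 of 36 (8.33%) and in 4.50% of genes. Among members with a sequence, CACGTG was found in 4 of 17 with a BMAL1 peak within 1 kb (23.5%). It was found in 3 of 19 without one (15.8%). The 4 members with both are shown. Slc25a10, which has a BMAL1 peak 304 bp before its start and neither motif, is shown as well. Each line runs 5′ to 3′ up to the base before the start, and the capitals mark CACGTG.
Slc25a33 (chr4:149774268-149774517, minus strand): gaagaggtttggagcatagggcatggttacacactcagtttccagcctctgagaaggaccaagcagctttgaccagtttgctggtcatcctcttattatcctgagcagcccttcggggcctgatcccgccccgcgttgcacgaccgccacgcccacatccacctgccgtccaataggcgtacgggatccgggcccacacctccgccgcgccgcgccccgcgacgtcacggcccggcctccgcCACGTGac
Slc25a1 (chr16:17928220-17928469, minus strand): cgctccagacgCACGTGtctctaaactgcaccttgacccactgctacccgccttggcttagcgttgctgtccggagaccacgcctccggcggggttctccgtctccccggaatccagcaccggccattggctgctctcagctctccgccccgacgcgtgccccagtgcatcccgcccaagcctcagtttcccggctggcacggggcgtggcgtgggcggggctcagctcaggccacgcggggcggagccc
Slc25a36 (chr9:97111042-97111291, minus strand): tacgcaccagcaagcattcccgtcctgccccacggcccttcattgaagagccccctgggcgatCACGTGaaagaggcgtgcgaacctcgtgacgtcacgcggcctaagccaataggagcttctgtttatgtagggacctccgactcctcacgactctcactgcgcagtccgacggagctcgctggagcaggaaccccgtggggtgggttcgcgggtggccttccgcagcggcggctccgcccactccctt
Slc25a15 (chr8:22398278-22398527, minus strand): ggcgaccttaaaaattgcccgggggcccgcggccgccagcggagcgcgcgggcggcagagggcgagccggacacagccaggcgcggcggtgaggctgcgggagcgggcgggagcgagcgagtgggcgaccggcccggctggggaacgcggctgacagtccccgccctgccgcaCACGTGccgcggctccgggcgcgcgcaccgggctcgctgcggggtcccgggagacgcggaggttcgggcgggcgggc
Slc25a10 (chr11:120491587-120491836, plus strand): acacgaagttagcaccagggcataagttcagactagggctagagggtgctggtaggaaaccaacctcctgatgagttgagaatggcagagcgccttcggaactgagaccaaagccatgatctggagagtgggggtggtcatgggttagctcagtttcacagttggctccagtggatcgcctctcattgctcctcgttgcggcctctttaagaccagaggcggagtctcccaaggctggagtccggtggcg

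In Slc25a33 the motif starts 8 bases before the start site, in Slc25a15 77 bases and in Slc25a36 187 bases, each wholly inside the BMAL1 region. In Slc25a1 it starts 239 bases before the start site and 4 of its 6 bases lie inside the region. A match of these letters is a description and not a site. BMAL1 was mapped in inguinal WAT only, so the same peaks are set beside the RNA of both depots. A BMAL1 peak lay within 10 kb for 5 of the 7 members rhythmic in BAT RNA. These were Slc25a1, Slc25a10, Slc25a33, Slc25a40 and Slc25a48. It did so for 2 of the 3 members rhythmic in WAT RNA (Slc25a1 and Slc25a10). Of the members tested for rhythm, 20 of 35 in BAT RNA and 20 of 35 in WAT RNA had such a peak. Slc25a17 and Slc25a34 had none. Of the 28 member peaks 15 overlapped a WAT ATAC peak by at least 75 bp (53.6%, against 55.9% of all BMAL1 peaks). Of the rhythmic ATAC peaks those of Slc25a21 in both depots, and in BAT those 5925 bp before Slc25a4, at the promoter of Slc25a26 and 53047 bp before Slc25a51, overlapped a BMAL1 peak to that extent. The rhythmic WAT peak 18057 bp before Slc25a33 shared 74 bp with a BMAL1 peak and the one 453 bp before Slc25a10 shared 32 bp. The CACGTT of Slc25a28 also lay inside its BMAL1 region.

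The authors' deposited tables also give a JTK_CYCLE q-value for each gene on TPM. At a q under 0.05 the authors' deposited table called 4 of 39 members in BAT, against 4.33% of its 14055 genes, and 1 of 37 in WAT, against 0.136% of its 12541 genes. In BAT the members in the authors' deposited table were Slc25a3 (q = 0.0188), Slc25a10, Slc25a40 and Slc25a48 (q = 0.0428 each). Slc25a3 was not called here (adjusted p = 0.347, edgeR). The authors' deposited JTK_CYCLE q-values of the other members called here in BAT were above 0.05. They were 0.0647 (Slc25a34), 0.0752 (Slc25a33), 0.0862 (Slc25a17) and 0.0993 (Slc25a1). In WAT the authors' deposited q was 0.209 for Slc25a1, and that of Slc25a10 was above 0.05 as well. The authors' deposited tables for ATAC called 9 of 122 member peaks in BAT (7.38%, against 9.1% of all peaks) and 4 of 75 in WAT (5.33%, against 8.59%).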

How the data were processed

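Ribosome-bound RNA was taken with an anti-GFP pulldown and sequenced from directional libraries, and ATAC-seq used sorted nuclei, per the labels' protocols. The RNA table holds estimated counts per gene deposited by the authors, rounded here to whole numbers; STAR 2.7.5, RSEM 1.3.0 and Bowtie2 2.4.1 are named in the submitters' processing notes. No source used here states if strand was used in counting. The TPM values were made and deposited by the authors in tables that also hold JTK_CYCLE p-values and q-values of the authors. The ATAC tables hold raw tag counts in 1 peak set for each depot on mm10, annotated with HOMER, per the file headers. The BMAL1 table, per the file headers, holds a HOMER score for each peak and a coverage signal of scaled tags from 2 libraries. The input library was not used, and 1 TPM column that matched no sample was left out.

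Counts were scaled with TMM, filtered with filterByExpr and tested with edgeR 4.0.16 (R 4.3.3, quasi-likelihood, two-sided), with Benjamini-Hochberg adjustment over all genes or peaks. A depot call required an adjusted p under 0.05 and a 2-fold difference. Rhythm was a cosine and sine of 24 h, and the SE of a swing was derived from its F statistic. TMM-scaled CPM were used for single libraries. Of 55487 gene IDs 55394 were matched to symbols. Alternatives used RLE scaling, no filter, DESeq2 1.42.0, limma 3.58.1 (voom), left-out libraries, glmTreat, time as a factor and a replicate block. The RNA tests were checked on simulated counts, with the same spread for both depots in the tests between depots. Within a depot a wider spread was simulated for WAT than for BAT. The check of the tests between depots therefore does not cover unequal spreads. The ATAC tests were not checked in this way. Every called member was named, up to 15 a direction, then those with the highest TPM of their role; up to 10 rhythmic ATAC peaks a depot, with the peaks nearest the start of rhythmic members; and up to 3 called genes for each pathway list and direction. The values of 1 member and 1 listed enzyme are not reported here, and both stay in the counts. Members and lists were chosen with earlier results of these data known.

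Depth ranged from 3959384 to 12811242 tags in peaks for BAT ATAC libraries and from 1623006 to 5294923 for WAT, and the lower depth of WAT in both assays leaves low-level members less precise there. Same-numbered libraries did not deviate together, so the numbers were not taken as pairs.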

Additional observations from a re-analysis of the deposited data

Results flagged for a closer look

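For 3 carriers the daily rhythm of RNA differed between BAT and WAT when that difference was tested itself (edgeR quasi-likelihood test, Benjamini-Hochberg adjusted). The amplitude of the difference curve, on the log2 scale, was 1.52 for Slc25a10 (adjusted p = 0.00883), 1.34 for Slc25a17 (adjusted p = 0.0216) and 0.84 for Slc25a33 (adjusted p = 0.0441). Over all left-out libraries the adjusted p stayed at or below 0.0209 for Slc25a10 and 0.0445 for Slc25a17, and reached 0.0842 for Slc25a33. Over all genes 12.9% were called in this test.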

How the results depend on the processing

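The 18 members that differed between the depots stayed between 17 and 19 over 35 left-out libraries. Rhythm counts were less firm. The count of members with a depot difference in rhythm (4) ran from 3 to 6 over left-out libraries and was 10 with limma voom and 10 without the 3 WAT libraries rich in ribosomal RNA. In BAT the 7 rhythmic members became 5 to 14 over left-out libraries, 12 with DESeq2, 17 with limma voom and 3 with time as a factor. In WAT the 3 became 2 to 7 over left-out libraries, 5 with no filter, 5 with DESeq2, 9 with limma voom and 7 without the 3 libraries. For dark against light the 1 member in BAT became 0 to 2 over left-out libraries, 0 with RLE scaling, 4 with no filter, 2 with DESeq2 and 4 with limma voom. The 3 in WAT became 2 to 5 over left-out libraries, 12 with limma voom and 9 without the 3 libraries. Rhythmic ATAC peaks of members were 12 to 18 in BAT and 9 to 13 in WAT over left-out libraries, and 37 in BAT with time as a factor. Over all peaks the left-out libraries gave 6105 to 8236 in BAT, against 8053, and 3240 to 4068 in WAT, against 3968. The count over all peaks with time as a factor is not shown here. Members with a BMAL1 peak within 10 kb fell from 21 to 11 when only peaks at or above the median score were kept. The cause of these changes was not tested. No member called between depots or between dark and light changed direction in these fits, nor did Slc25a1 and Slc25a5 between depots. A fitted swing has no sign, so direction could not be followed for rhythm calls or ATAC peaks. Their peak times were not compared between fits. Members that missed the threshold and genes of the pathway lists were not followed in this way.

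Same-numbered libraries did not deviate together: the median correlation of BAT with WAT deviations was 0.005 over 17 pairs (from -0.309 to 0.226). With the replicate block 19 members differed between depots, 4 in rhythm between depots, 6 were rhythmic in BAT and 5 in WAT, and 0 in BAT and 3 in WAT differed between dark and light.

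Counts over all genes moved too. The rhythm difference gave 1418 genes, against 2156 with no filter, 2690 with DESeq2, 3456 with limma voom, 3641 without the 3 WAT libraries and 571 to 3015 over left-out libraries. Rhythm in BAT gave 1136, against 1754, 2455 and 4063 with no filter, DESeq2 and voom, 617 with time as a factor and 460 to 3383 over left-out libraries. Rhythm in WAT gave 1257, against 3046, 2096 and 3182 in the same order, 2689 without the 3 libraries and 472 to 2519 over left-out libraries. Dark against light gave 161 in BAT, against 471, 352 and 510, and 59 to 194 over left-out libraries; in WAT it gave 953, against 1457, 1574 and 3687, 2845 without the 3 libraries and 188 to 2013. With no filter 11706 genes differed between depots, against 5204, as more genes were tested.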
